A study of Mus musculus with 4 samples.

Results

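Wnt ligands and modulators of the gonad were followed across RNA pools of mouse genital ridge cells that carried or lacked HP1γ, a heterochromatin protein encoded by Cbx3. The genes were Wnt4, Wnt5a, Rspo1, Dact1, Dact2, Axin2, Lef1, Sfrp1, Sfrp2 and Dkk1. The list was chosen on the measured levels of Dact2 and Wnt4, which read higher in the pools lacking HP1γ. The difference between genotypes is therefore given for these genes as a description without a test. All 10 genes had a probe, 7 of them 1 probe and 3 of them 2, which makes 13 of the 41174 probes on the array and 10 of its 18327 named genes. The samples were 4 pools of total RNA from mVenus-positive cells of embryonic day 11.5, taken from dissociated genital ridges by cell sorting and labelled as primordial germ cells, the precursors of eggs and sperm. There were 2 wild-type pools and 2 HP1γ-/- pools, each pool made from 5 or 6 embryos that gave 500 to 3500 sorted cells apiece. Embryos of both genotypes carried the Blimp1-mVenus transgene, so the reporter is common to all samples, and the null allele was a gene trap. Each pool was read on 1 one-colour Agilent array, with all 4 arrays on 1 slide.

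Wnt proteins are secreted signals that bind Frizzled receptors with Lrp co-receptors. In the canonical branch this keeps beta-catenin from being degraded, so that it enters the nucleus and acts with Tcf and Lef factors on target genes, while the non-canonical branches act on cell polarity and movement. In the early gonad Wnt4 and its amplifier Rspo1 are known for their part in ovary formation and in the growth of the coelomic epithelium, and Wnt5a for a part in germ cell migration.

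The promoter windows of Dact2 and Wnt4, on which the list rests, and of Dkk1, which read above background in 1 pool only, are shown for their contrast in base composition and in the core letters recognised by Tcf and Lef factors. Each holds the 250 bases before a RefSeq start site (GRCm38.p6), 5′ to 3′ along the gene's strand. Dact2 is at chr17:14203832-14204081 on the minus strand, Wnt4 at chr4:137277385-137277634 on the plus strand and Dkk1 at chr19:30549497-30549746 on the minus strand. Capitals mark each CTTTG, or CAAAG on the other strand.
Dact2: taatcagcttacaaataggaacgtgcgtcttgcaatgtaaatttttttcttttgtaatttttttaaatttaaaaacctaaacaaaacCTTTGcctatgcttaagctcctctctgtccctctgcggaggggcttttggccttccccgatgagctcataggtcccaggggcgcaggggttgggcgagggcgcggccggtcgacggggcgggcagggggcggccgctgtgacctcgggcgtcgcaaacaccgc
Wnt4: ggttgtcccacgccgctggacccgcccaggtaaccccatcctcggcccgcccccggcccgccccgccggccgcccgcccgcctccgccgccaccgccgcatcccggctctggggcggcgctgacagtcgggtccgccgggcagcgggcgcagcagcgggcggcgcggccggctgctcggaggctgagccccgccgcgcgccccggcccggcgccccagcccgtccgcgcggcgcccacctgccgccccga
Dkk1: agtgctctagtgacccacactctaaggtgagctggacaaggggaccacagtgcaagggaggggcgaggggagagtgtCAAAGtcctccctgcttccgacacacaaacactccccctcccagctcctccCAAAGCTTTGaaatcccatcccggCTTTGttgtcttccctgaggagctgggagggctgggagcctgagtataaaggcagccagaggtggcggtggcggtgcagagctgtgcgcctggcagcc
Dact2 held 1 match to CTTTG and Wnt4 none, whereas Dkk1 held 4, a pair of them end to end. The longer CTTTGA, which contains CTTTG and was searched on both strands, had 2 matches in Dkk1 and none in the other two. Of 32851 RefSeq promoter windows of this length, 48.6% held CTTTG and 13.8% CTTTGA. The Wnt4 window was 85.2% G and C with 44 CpG sites, the Dact1 window 80.4% with 41, the Axin2 window 69.2% with 24 and the Rspo1 window 66.8% with 22. The Sfrp2 window had 63.6% and 16 sites, that of Dkk1 60.8% and 6, and that of Dact2 54.0% and 18. The median over all windows was 52.4% with 6 sites. CTTTG was absent from the windows of Rspo1, Dact1, Axin2 and Sfrp2, while the 4 start sites of Lef1 had 1, 2, 1 and 3 matches. No window was given for Wnt5a and Sfrp1, so 8 of the 10 genes are covered.

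Each level is a log2 signal from which the 75th percentile of its array was subtracted, so that 0 means the signal at that percentile. Levels are always given in the order wild-type replicates 1 and 2, then null replicates 1 and 2. Levels of different probes cannot be set against each other. The 75th percentile lay between 125 and 291 intensity units, and 53.3% to 63.3% of the spots were well above background, the scanner software's mark for a measured spot. Cbx3 checked the genotype labels: its 2 probes lay between 4.80 and 5.89 in wild type and between -2.78 and -1.24 in the null pools. Null replicate 2 stood apart in germ cell markers. Dppa3, a germ cell marker, read 1.60, -0.26, 3.58 and -7.04, and in that pool 7 of 10 germ cell markers measured were not well above background, among them Dppa3, Pou5f1 and Ddx4. All 12 endothelial and all 9 leukocyte markers measured were well above background on all 4 arrays, so every pool labelled as germ cells also held RNA of these genes. In bulk RNA, fewer cells of a type and less RNA per cell cannot be told apart. With 2 pools a genotype, precision is limited by how few arrays there are, and each SD is over 2 pools.

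The ligands and their amplifier came first. Wnt4, the ligand of the early gonad, read -3.80, -4.38, -2.67 and -1.93 and was well above background in the null pools but on neither wild-type array. Both null pools lay above both wild-type pools, by 1.13 at the nearest pair. Since the wild-type signal was not measured above background, the difference under this scaling is a bound, at least 3.02-fold higher in the null pools, with measured means of -4.09 ± 0.41 and -2.30 ± 0.53 (SD, n = 2). For this bound the dimmer group is given, array by array, its own signal or that of the dimmest measured probe, whichever is larger. The bound holds for these 4 arrays as scaled here. The difference of the measured means, 1.79, was 1.42 without null replicate 2, 1.17 under scaling to spiked-in RNA and 0.70 under normexp background correction. Rspo1, a secreted protein that amplifies Wnt signals by sparing Frizzled receptors from removal, read -0.46, -1.43, -0.08 and 1.55. The null pools were again the higher ones, but null replicate 1 exceeded wild-type replicate 1 by 0.38, while the 2 null pools themselves were 1.63 apart. Its means were -0.94 ± 0.68 and 0.74 ± 1.15, a difference of 1.68, which became 0.86 with null replicate 2 left out and 2.50 with null replicate 1 left out. Wnt5a, a ligand of the non-canonical branch, read -4.73, -6.24, -5.41 and -6.91 and was well above background on none of the 4 arrays, so no order of its levels can be given.

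Dact1 and Dact2 encode relatives of Dapper, adaptor proteins that bind Dishevelled inside the cell and modulate Wnt signalling. Dact2 read -2.25, -2.46, 0.98 and 1.20 by probe A_52_P619911, well above background on all arrays. In processed signal these were 39.4, 39.7, 246 and 669 intensity units. The wild-type pools were 0.21 apart and the null pools 0.22, against a gap of 3.23 between the genotypes. Its means of -2.36 ± 0.15 and 1.09 ± 0.16 differ by 3.45, or 10.9-fold, and the difference stayed between 3.34 and 3.56 with any 1 array left out. Normexp correction gave 2.27 and spiked-in scaling 2.82. The other Dact2 probe, A_51_P308347, read -5.55, -6.09, -4.26 and -4.05 and was measured in null replicate 2 only, so it gives no fold. Dact1 read -1.70, -3.02, -1.49 and 0.59. The null pools were the higher ones, with null replicate 1 only 0.21 above wild-type replicate 1 and 2.07 below null replicate 2. Its means were -2.36 ± 0.93 and -0.45 ± 1.46, a difference of 1.91. With null replicate 2 left out this was 0.87, and with null replicate 1 left out 2.95. The paralogs thus showed the same order of genotypes with very different spread: the null pools differed by 0.22 in Dact2 and by 2.07 in Dact1.

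**Figure D1:**
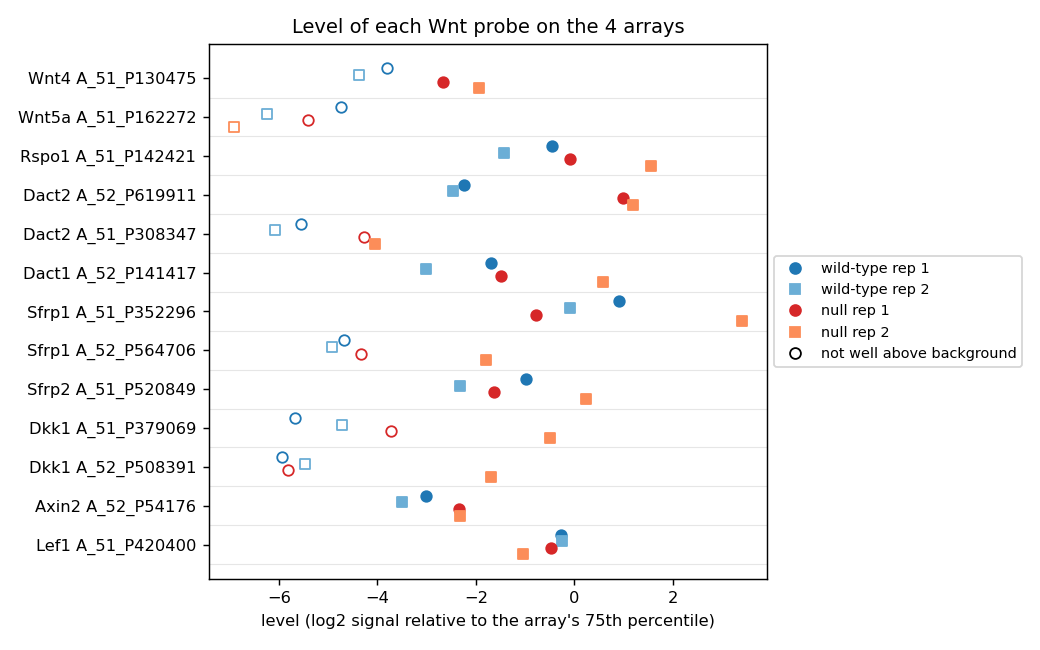
Level of every Wnt probe (rows) on each of the 4 arrays, on the log2 scale relative to the array's 75th percentile, with open symbols where the spot was not well above background. Dact2 by its brighter probe shows 2 tight pairs at -2.25 and -2.46 against 0.98 and 1.20, while the brighter Sfrp1 probe spans -0.77 to 3.40, its lowest and highest values both in null pools.

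The secreted inhibitors all had their highest level in null replicate 2, by each of their 5 probes, and no common order in the other pools. Sfrp1, a soluble Frizzled-like protein that binds Wnts, read 0.90, -0.08, -0.77 and 3.40 by its brighter probe. Null replicate 1 was the lowest of the 4 pools and null replicate 2 the highest, so the genotypes overlapped. The means of 0.41 ± 0.69 and 1.32 ± 2.95 differ by 0.91, and by -1.18 without null replicate 2. Its dimmer probe read -4.68, -4.92, -4.32 and -1.80 and was well above background in null replicate 2 only. Sfrp2, its relative, read -0.97, -2.33, -1.64 and 0.23, with null replicate 1 between the 2 wild-type pools. Its difference of 0.95 became 0.01 without null replicate 2. Dkk1, which blocks the Lrp co-receptors and is itself induced by Wnt signals in many tissues, read -5.67, -4.72, -3.71 and -0.50 by one probe. By the other it read -5.93, -5.47, -5.82 and -1.69. Both Dkk1 probes were well above background in null replicate 2 and on no other array, so Dkk1 was measured in 1 of the 2 null pools and in neither wild-type pool.

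Axin2 and Lef1 stand downstream. Axin2, a scaffold of the beta-catenin destruction complex and a widely used target gene of the canonical branch, read -3.02, -3.51, -2.34 and -2.33, well above background on all arrays. The null pools agreed within 0.02 and lay 0.67 above the nearer wild-type pool. Its means of -3.26 ± 0.35 and -2.34 ± 0.01 differ by 0.93, or 1.90-fold, and by 0.68 to 1.17 with 1 array left out. Under normexp background correction the difference was 0.29 and under scaling to spiked-in control RNA 0.30. Lef1, a nuclear partner of beta-catenin that endothelial and blood cells also express, read -0.26, -0.25, -0.47 and -1.05. It was the single measured gene of the list with both null pools below both wild-type pools, by 0.21 at the nearest pair. Its means were -0.26 ± 0.004 and -0.76 ± 0.41, a difference of -0.50. Leaving out null replicate 2 gave -0.22, leaving out null replicate 1 gave -0.79, and spiked-in scaling gave -1.13.

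**Figure D2:**
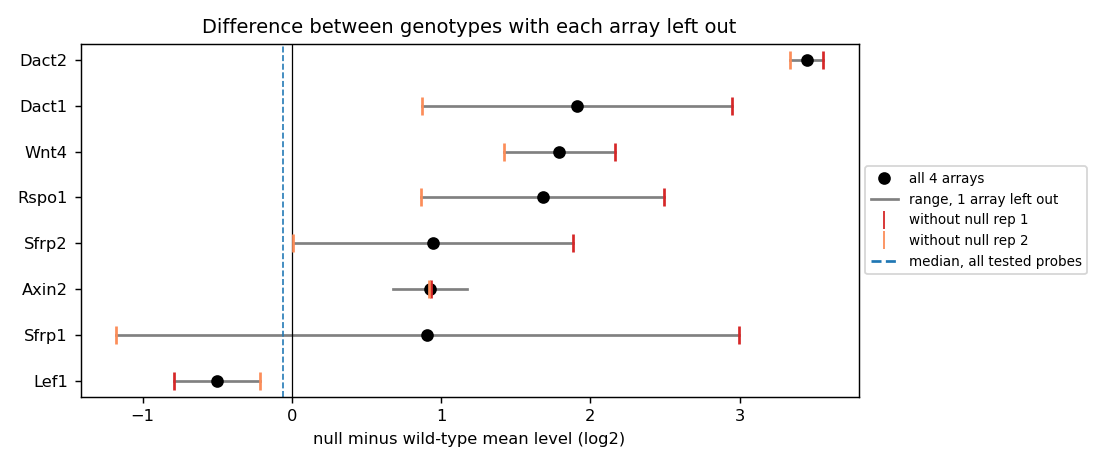
Null minus wild-type mean level (log2) of the 8 tested Wnt probes with all 4 arrays (black) and over the 4 ways to leave out 1 array (grey), with the values without each null pool marked. Dact2 stays within 3.34 to 3.56, whereas Sfrp1 runs from -1.18 without null replicate 2 to 2.99 without null replicate 1.

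Of the 13 probes, 8 from 8 genes were well above background on both arrays of a genotype and entered the test across all probes, Wnt4 only through the null pools. Of the other 5, Wnt5a was measured on no array and 4 (the second probes of Dact2 and Sfrp1 and both of Dkk1) in null replicate 2 only. Among the 8, the null pools lay above the wild-type pools without overlap for 5 (Wnt4, Rspo1, Dact1, Dact2 and Axin2) and below for 1 (Lef1), while Sfrp1 and Sfrp2 overlapped. Over all 22440 tested probes, 15.1% were higher and 23.0% lower without overlap. Of the 5, all but Axin2 differed at least 2-fold, which 3.92% of all tested probes did in that direction. The median difference was 1.31 for the 8 probes and -0.06 for all tested probes. Because this contrast chose the list, nothing is read from these counts. Without null replicate 2, Dact2 and Wnt4 were the members at least 2-fold higher without overlap, as were 5.73% of all tested probes. Sfrp1 was then at least 2-fold lower. Under scaling to spiked-in RNA, Dact2 and Wnt4 were again the 2 that kept that place, as did 1.75% of all tested probes. That scaling moved the median of all probes from -0.06 to -0.69 and put Lef1 at least 2-fold lower. Under normexp correction Dact1, Dact2 and Rspo1 kept it, as did 1.01% of all tested probes, and Wnt4 differed by 0.70. Since Dact2 and Wnt4 chose the list, nothing is read from these either.

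The rule that chose the list did not use the spread between pools of one genotype, though earlier results of these data were known. The values over all tested probes below are not matched for signal level. Between the wild-type pools the 8 probes differed by a median of 0.77, against 0.16 over all tested probes, and between the null pools by 1.19, against 0.42. In 7 of the 8 the level was higher in wild-type replicate 1 than in replicate 2, which held for 48.3% of all tested probes. Wnt4 is among these 7, though neither of its wild-type levels was well above background, so its order there was not measured. In 7 of the 8 the level was higher in null replicate 2 than in null replicate 1, which held for 45.4%. Lef1 was the exception both times. The 7 that were well above background on all arrays fell into 3 kinds of pattern: Dact2 and Axin2 with pools of a genotype at most 0.49 apart, Rspo1, Dact1, Sfrp1 and Sfrp2 with null replicate 2 at least 1.63 above null replicate 1, and Lef1 lowest in null replicate 2. This grouping was made after the values were seen.

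Markers of other cell types also differed between these pools. For some lists 1 feature shared with Wnt genes is named, while the order of all 4 pools mostly differed. The level of a list is the sum of its genes' signals in multiples of the array's 75th percentile. For 11 stromal genes the sums were 26.2, 11.3, 13.1 and 89.6, and all 11 were well above background on every array. The stromal sum was highest in null replicate 2, as for Sfrp1, Sfrp2, Rspo1 and Dact1. In null replicate 1 the stromal sum lay between the wild-type pools, as did Sfrp2. Its largest term in that pool was Postn, which read -1.67, -2.78, 1.94 and -1.96. Postn and Col5a1 lay above both wild-type pools there, as did Rspo1 and Dact1. Every other stromal gene of the list lay below both there, as did Sfrp1. For 13 genes of the gonadal soma they were 5.27, 3.79, 6.44 and 11.7, with 9, 8, 6 and 12 of the genes well above background. The defining gonadal factors Gata4 and Emx2 were measured in null replicate 2 only, Nr5a1 in wild-type replicate 2 and null replicate 2, and Lhx9 in wild-type replicate 1 and null replicate 2. Without overlap, 3 of the 13 were higher in the null pools (Cbx2, Amhr2 and Nr0b1) and 2 lower (Bmp2 and Irx3). Of the 12130 named genes tested, 17.7% were higher and 20.7% lower, so nothing is read from these 2 counts. Amhr2 read -0.50, -1.46, 0.82 and 1.51 and Nr0b1 -2.03, -3.58, -0.35 and -1.09, well above background on all arrays. For 9 genes of coelomic epithelium and mesothelium the sums were 3.91, 2.30, 37.1 and 14.1, higher in both null pools as for Dact2, Wnt4 and Axin2. The sum was highest in null replicate 1, whereas Dact2, Wnt4 and Axin2 were highest in null replicate 2. Of the 9 genes, 8 were higher in the null pools without overlap, where 17.7% of the 12130 named genes tested were. The 8 include Upk3b, a defining mesothelial gene, and Upk1b, both well above background in null replicate 2 only. They also include Msln, Krt19 and Lrrn4, well above background in both null pools and in neither wild-type pool. Krt7, Krt8 and Krt18 were well above background on all arrays. Since the 17.7% covers tested genes only, the shares are unlike and nothing is read from the count of 8. The keratin gene Krt18, the largest term of the sum in each pool, read 0.65, -0.03, 4.38 and 2.68. For 12 endothelial genes the sums were 297, 318, 168 and 214, lower in both null pools as for Lef1. The sum was lowest in null replicate 1 and Lef1 in null replicate 2. Of the 12 genes, 11 were lower in the null pools without overlap, where 20.7% of the named genes tested were. The 9 leukocyte genes summed to 247, 284, 253 and 226, the 7 erythroid genes to 3.65, 5.54, 2.96 and 3.17 and the 8 mesonephric genes to 0.98, 0.66, 1.37 and 0.88. Pax2 and Pax8, which define the mesonephros, were on no array well above background. The 10 germ cell genes summed to 48.6, 15.3, 200.1 and 1.31, so the null pool with the higher Sfrp1, Sfrp2, Rspo1, Dact1 and Dkk1 was the one with the lowest germ cell signal. Dppa5a, the largest term of that sum in each pool, read 5.37, 3.66, 7.45 and -0.84. Dazl had another order, at -0.45, -3.02, -2.15 and -5.91. Wt1 stands in both the somatic and the epithelial list and Emx2 in both the somatic and the mesonephric one. The part of these cell types in the Wnt values was not tested. Labels used here give no sex of the embryos. Xist read between 3.25 and 4.15 and the Y-linked Ddx3y between -0.82 and -0.19, with no separation of the genotypes.

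**Figure D3:**
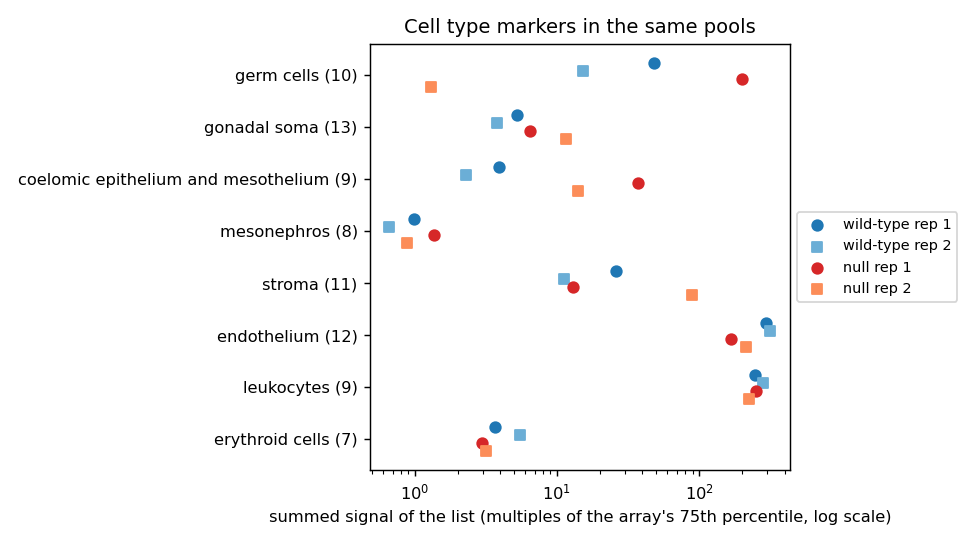
Summed signal of each list of cell type markers (rows, number of genes measured in brackets) on each array, in multiples of the array's 75th percentile on a log axis. Stromal markers are highest in null replicate 2 (89.6), where germ cell markers are lowest (1.31), and epithelial markers are higher in both null pools (37.1 and 14.1) than in wild type.

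For Wnt4 and the 6 Wnt genes that were well above background on all arrays with levels spread over more than 1 log2 unit, which leaves out Lef1, the genes with the most similar 4 levels were found by the root-mean-square difference after each gene was centred on its own mean, over 4 arrays and 11820 tested genes with a full gene symbol. Dact2 was nearest to Col22a1, a collagen gene (0.14), Kcnt1, a potassium channel gene (0.15), and St6galnac5, a sialyltransferase gene (0.20), and 4 genes in all came within 0.25. In wild type these were dim, at -4.07 and -4.18 for Col22a1, -5.00 and -5.50 for Kcnt1 and -5.71 and -6.26 for St6galnac5. Their likeness to Dact2 therefore rests partly on low signal. Wnt4 was nearest to Sdc2, a heparan sulphate proteoglycan gene (0.08), the protocadherin gene Pcdhb21 (0.12) and Zfp975 (0.14), with 36 genes within 0.25, though neither wild-type level of Wnt4 was well above background. Rspo1 was nearest to Fzd2, a Wnt receptor gene (0.06), Hs3st3b1, a heparan sulphate sulphotransferase gene (0.07), and Gata6, a transcription factor gene (0.08). Dact1 was nearest to Slc4a3 (0.10), the netrin receptor gene Unc5c (0.10) and again Fzd2 (0.17). Sfrp1 was nearest to S1pr3, a sphingosine phosphate receptor gene (0.07), the microfibril gene Mfap4 (0.09) and the nerve growth factor receptor gene Ngfr (0.18). Sfrp2 was nearest to Fam171b (0.09), Wt1, a factor of the gonadal primordium (0.12), and Ugt2b34 (0.13). Axin2 had 210 genes within 0.25, the most of these 7 Wnt genes, led by Morn2 (0.01), Atg13 (0.06) and Arhgap32 (0.07). Over 4 arrays such likeness is a description only.

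The other genes of the pathway were tested with limma across all probes. Of 100 such genes, 95 had a probe and 59 were tested, while 20 were well above background on no array, 8 of those being Wnt ligands. No tested gene passed in either direction (limma, Benjamini-Hochberg over 22440 probes), and 0 of the 12130 named genes did by their brightest tested probe. Over all probes 2 were called, or 0.00891% of those tested, among them a Cbx3 probe (limma adjusted p = 0.044). The brighter Cbx3 probe, with a difference of -7.82, was not called (limma adjusted p = 0.099). With 2 pools a genotype, a count of 0 therefore says little about these genes. At an unadjusted p under 0.05 there were 10 of the 59, 8 higher and 2 lower in the null pools, or 16.9%, where 7.31% of 12130 named genes reached it. As a description, 8 of the 59 (13.6%) were at least 2-fold higher without overlap and 0 at least 2-fold lower, where 4.59% and 0.635% of the named genes were. Regardless of size, 19 were higher and 13 lower without overlap, or 32.2% and 22.0%, where 17.7% and 20.7% of the named genes were. However, 9 of the 59 were tested only through the null pools and 1 only through the wild-type pools. Of the 12130 named genes, 552 and 264 were. For those 9 the null level alone admitted the gene to the test. They included Rnf43, Fzd7 and Sp5 of the 2-fold genes, which with Znrf3 also had an unadjusted limma p under 0.05. They also included Wnt9a, Fzd6 and Pygo1, higher without overlap. These counts are therefore not read as a result about the pathway. Without null replicate 2 the 2-fold counts were 7 higher and 2 lower, with spiked-in scaling 2 and 4, and with normexp correction 2 and 0. The median difference was 0.14 over the 59 and -0.02 over the named genes.

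Among ligands, R-spondin partners and receptors, Wnt6, an epithelial ligand, read -0.79, -2.01, -0.21 and 0.46, a difference of 1.52 with SE 0.50 (limma adjusted p = 0.62) that was 0.91 without wild-type replicate 2. Wnt9a differed by 0.90 (limma adjusted p = 0.72), and by 0.45 without that pool. Rnf43 encodes a ubiquitin ligase that removes Frizzled receptors and that R-spondins hold in check. It read -3.59, -4.31, -0.51 and -2.57 and was at least 4.96-fold higher in the null pools, with neither wild-type array well above background (limma adjusted p = 0.61). The fitted difference of 2.41 was 1.38 without null replicate 1, which is smaller than the bound. Its relative Znrf3 differed by 0.67 (limma adjusted p = 0.64), and the R-spondin receptor gene Lgr4 by 0.95 with overlap. None of the Frizzled genes passed the test, and their differences had both signs. Fzd2 read -0.80, -1.90, -0.52 and 1.22, a difference of 1.70 that was 0.83 without null replicate 2 (limma adjusted p = 0.70). Fzd7, measured on 1 of the 2 wild-type arrays, read -3.31, -2.91, -2.36 and -1.38, a difference of 1.24 (limma adjusted p = 0.62) that was 0.75 without null replicate 2. Fzd3 differed by 0.77 with all 3 of its probes in the same direction (limma adjusted p = 0.53 by the brightest). Fzd4, a Frizzled of vascular endothelium, read 3.59, 3.64, 2.63 and 3.18, a difference of -0.71 (limma adjusted p = 0.66). Of 12 receptor genes tested, 4 were higher and 2 lower without overlap, where 17.7% and 20.7% of the named genes were. Of these 4, Fzd6 and Fzd7 were tested only through the null pools.

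Of 22 genes of secretion and transduction, 5 were higher and 8 lower without overlap, where 17.7% and 20.7% of the named genes were. Their median difference was -0.09. Celsr1, a polarity cadherin, read -0.85, -1.27, -0.12 and 0.06 and had the lowest adjusted p of the 59 genes (limma adjusted p = 0.50). Porcn, the acyltransferase that adds the lipid Wnt proteins need, read -3.29, -3.32, -1.38 and -2.92 (limma adjusted p = 0.74), a difference of 1.16 that was 0.39 without null replicate 1. Dvl2, a Dishevelled gene, differed by 0.64 (limma adjusted p = 0.71). The gene of beta-catenin itself, Ctnnb1, named after its values were seen, read 4.61, 4.67, 4.30 and 4.43, a difference of -0.28 (limma adjusted p = 0.83). Of 12 nuclear partners, Tle2, a co-repressor, read -0.67, -1.53, 0.03 and -0.07, a difference of 1.07 with SE 0.35 (limma adjusted p = 0.61) that was 0.65 without wild-type replicate 2. Pygo1, a co-activator gene, differed by 0.99 (limma adjusted p = 0.69). Of 3 further inhibitors tested none was 2-fold apart without overlap, Kremen1 differing by -0.31 and Sost by 0.52 (limma adjusted p = 0.82 and 0.85). Of 9 target genes tested, 7 had a positive and 2 a negative difference, and 3 were higher and 1 lower without overlap. The 3 higher ones, Sp5, Rnf43 and Znrf3, were tested only through the null pools, so nothing is read from these counts. The median difference of the 9 was 0.29, and -0.08 without null replicate 2. Sp5, a direct target in many tissues, read -4.44, -6.31, -2.54 and -3.50 and was at least 1.84-fold higher in the null pools (limma adjusted p = 0.61), where alone it was well above background. Its fitted difference of 2.35 was 1.42 without wild-type replicate 2. Myc read 1.83, 1.76, 1.11 and 1.32, a difference of -0.58 (limma adjusted p = 0.64), and its other 2 probes were lower as well. Fst, a follistatin gene downstream of Wnt4 in the ovary, was measured in null replicate 2 only, at -3.31, and read -4.77, -5.41 and -3.97 elsewhere.

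**Figure D4:**
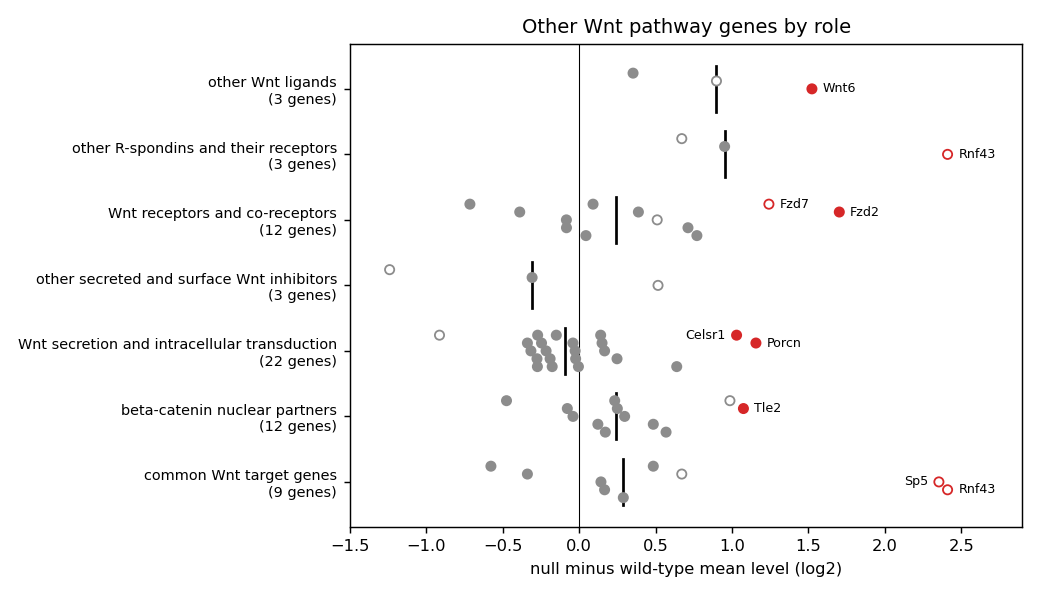
Null minus wild-type mean level (log2) of the 59 tested pathway genes outside the list, by role, with Tcf7, Nkd1, Axin1, Znrf3 and Rnf43 shown a second time under targets. Black bars are medians, red marks at least 2-fold without overlap (8 genes, all higher in the null pools) and open circles genes not well above background on both arrays of each genotype.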

How the data were processed

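Each of the 4 pools was hybridised to 1 array, and pools were grouped by the genotype in the sample titles, where the replicates are separate pools. Labelled cRNA came from 4 ng of total RNA, per the labels' protocols. The deposited intensity of each spot is the background-subtracted processed signal of Agilent Feature Extraction 10.7.3.1, per the file headers, and its 75th percentile differs between arrays. The authors also deposited a table of linear, uncentred intensity values with medians of 20.6, 22.6, 14.5 and 33.4. They lay within 0.50% of the processed signal.

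Here the log2 processed signal was taken minus each array's 75th percentile over 43379 non-control spots. Outlier spots (83 to 104 an array) were left out and spots of a probe averaged. A probe was tested if it was well above background on both arrays of a genotype, which 22440 were. The test was limma's moderated one (version 3.58.1, two-sided, Benjamini-Hochberg, threshold 0.05), run under R 4.3.3. Python 3.11.15 with pandas 2.3.3 did the rest. RefSeq accessions (GRCm38.p6) named 26888 of 41174 probes. The array design names another build, so no gene coordinates are given. A pathway gene stands for its brightest tested probe. The fit was tested on simulated data. For normexp (offset 50), which had been planned on mean signals, median spot signals were used.

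The members and lists were chosen with earlier results of these data known. Named are all probes of the members, pathway genes at least 2-fold apart without overlap, the 2 of lowest unadjusted p in each role, the first genes of marker lists, and the 3 nearest patterns. Fzd4, Fzd6, Myc, Lgr4, Ctnnb1, Fst, Emx2, Krt7, Krt18, Krt19, Lrrn4, Postn, Cbx2, Amhr2, Nr0b1, Bmp2, Irx3, Dppa5a and Dazl were added after their values were seen. Alternatives were quantile, median and spike-in scaling (7 control probes), normexp, the deposited table, no filter, a variance trend, the mean of a gene's probes, a replicate block and leaving out each array.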

Additional observations from a re-analysis of the deposited data

How the results depend on the processing

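Over the 8 tested Wnt probes and 9 alternatives each, 71 of 72 differences kept their sign, the exception being Sfrp1, at -1.18 without null replicate 2 and up to 2.99 with another array left out. Sfrp2 counts as kept at 0.01 without null replicate 2. This contrast chose the list, and the deposited table and median scaling hardly move a value. Nothing is therefore read from the count of 71. The scaling and background alternatives gave 2.27 to 3.46 for Dact2, 0.70 to 1.80 for Wnt4 and 0.29 to 0.93 for Axin2. The 2 calls over all probes were 100 with spiked-in scaling, 7 with a variance trend, 0 with no filter on dim probes and 0 without any 1 array. Other pathway genes were called 0 times under each alternative. Calls from the mean of a gene's probes were not run. At least 2-fold apart without overlap were 8 of them, 2 with normexp correction and 6 to 12 with 1 array left out, all higher except 2 lower without null replicate 2, 1 without wild-type replicate 1 and 4 of 6 with spiked-in scaling. With the replicate block 13 probes were called. The labels used here name no pairing of same-numbered pools. Deviations of such pools correlated at 0.07 across probes, which cannot show whether they were handled in pairs. The causes were not tested. Signal near background limits Wnt4 in wild type, Dkk1 outside 1 pool, and Wnt5a throughout.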
